A study of Mus musculus with 11 samples.

Results

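The lymph nodes (LN) of 2 mice transgenic for BCL2 driven by the 3' enhancers of the immunoglobulin heavy chain gene (Tg, mice 3 and 4) were compared with those of 2 wild-type mice (Wt, mice 1 and 2) across all 10885 genes of the deposited table. The 4 libraries were selected by the tissue and genotype in their labels, out of 11 libraries of spleen and LN from 6 mice. The labels give the genotype of the Tg mice as Transgenic (3'RR-BCL2). The other genotype of the study, Knock-in (Igk-BCL2), has BCL2 inserted into the kappa light chain gene (abbreviated KI, mice 5 and 6). It is used here, like the spleen libraries of Wt mice 1 and 2 and Tg mouse 4, only to set values beside those of LN. All 6 mice, Wt included, had received sheep red blood cells into the peritoneum over 3 months, and tissue was taken 1 month after the third immunisation. RNA came from dissociated cells of the whole tissue with no sort for B cells, so a level in these bulk libraries does not tell fewer cells of a type from less RNA per cell. The labels identify each library by mouse but give no litter, day of handling, age, transgene copy number or line of founders. Errors of a log2 difference are standard errors (SE) of the fit to 2 against 2 mice. That fit draws the spread of each gene between these mice towards the spread of genes at a like level. Its p-values therefore do not rest on the spread of the single gene alone. The comparisons with KI and between tissues use further libraries.

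BCL2 is an outer mitochondrial membrane protein that prevents apoptosis by binding the pro-death members of its family. The heavy chain 3' regulatory region (3'RR) is a group of enhancers that acts in B cells and is needed for class switching and for high antibody output in plasma cells. After immunisation, B cells proliferate and mutate their antibody genes in germinal centres, where their own BCL2 is low and most die unless follicular helper T cells rescue them. The survivors leave as memory B cells or plasma cells.

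The 4 libraries held between 11128568 (Wt mouse 1) and 21067988 (Tg mouse 4) reads over the genes of the table, and values below are normalised signal, that is reads scaled to a common size. Over genes, the log2 differences between the replicates had an SD of 0.449 in LN Tg and 0.493 in LN Wt, whereas their median size was 0.221 in LN Tg and 0.167 in LN Wt, so the order of the genotypes depended on the measure. Wt mouse 1 stood apart in several ways. It was the female of the 4, with Xist at 12314 and the Y-linked genes Ddx3y, Eif2s3y, Uty and Kdm5d at 0 to 1.61, whereas the other 3 mice had Xist at 0.844 to 2.83 and the pattern of a male. It was also low in the insulin signalling adaptor Irs2, at 3107 against 20036 in Wt mouse 2 and 19103 and 16573 in Tg, and in the transcription factor Fosl2, at 424 against 2460.3 in Wt mouse 2 and 3252 and 2594 in Tg. Both Tg mice stood apart from Wt in opposite directions for heat shock genes: the chaperone gene Hspa1a was at 2271 and 1833 in Wt, 36.8 in Tg mouse 3 and 17423 in Tg mouse 4, and the 11 genes of the list summed to 128919 and 141772 in Wt, 70849 in Tg mouse 3 and 250871 in Tg mouse 4. Without Wt mouse 1 the log2 difference of Irs2 went from 1.17 to -0.17 and that of Fosl2 from 1.51 to 0.24.

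The Tg and Wt lymph nodes were close. Of the 12 abundant genes with the smallest p on the side higher in Tg, 6 were in the list of germinal centre B cell genes. That list holds 18 of the 10885 genes and was chosen with earlier results of these data known. No gene was called at an adjusted p under 0.05 (0% of 10885) by limma on the 4 libraries, with the Benjamini-Hochberg adjustment over all genes. The smallest adjusted p in limma was 0.511. At an unadjusted p under 0.05 there were 311 genes, 204 of them higher and 107 lower in Tg, against the 544 that 5% of the genes amounts to. Pooling the spread over the 6 groups of all 11 libraries also gave 0 called genes, with a smallest adjusted p in limma of 0.103 and 532 genes at an unadjusted p under 0.05. A test of the reads recovered from the table by edgeR called 0 genes as well, with 308 at an unadjusted p under 0.05. DESeq2 on the same reads called 22, of which 18 were higher (0.165% of the 10881 genes with an adjusted p) and 4 lower (0.0368%). Differences are therefore given below as values with their error, and a DESeq2 call is named as one.

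As a measure that needs no model, the gap between the nearest libraries of the genotypes was taken for each gene. Both Tg libraries lay above both Wt libraries for 1386 genes (12.7%) and below them for 1590 (14.6%). The gap was at least 2-fold, on the scale of signal plus a pseudocount of 1, for 23 genes higher in Tg (0.211%) and 7 genes lower (0.0643%). The median log2 difference of all genes was -0.02. Signal scaled to equal sums without immunoglobulin and haemoglobin genes turned the balance of the genes without overlap to 17.2% above and 9.47% below, so small shifts of a list in 1 direction depend on the scaling. They also depend on single mice: of 26 lists with enough measured genes for a median, 14 had medians of both signs when each library was left out in turn.

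**Figure D1:**
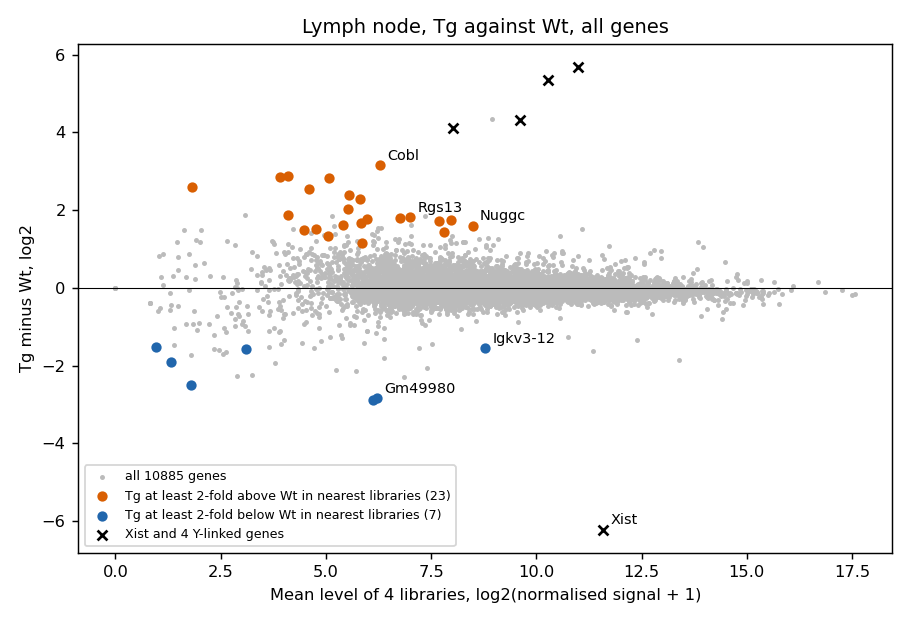
Mean level of the 4 lymph node libraries, as log2 of the normalised signal plus 1 (horizontal axis), and the log2 difference of Tg minus Wt (vertical axis) for each of the 10885 genes. Orange points are the 23 genes and blue points the 7 genes whose nearest Tg and Wt libraries lay at least 2-fold apart; crosses are Xist and 4 Y-linked genes, which separate Wt mouse 1 from the other 3 mice. Most genes lie near 0, and the orange points with a mean over 100 include Rgs13 and Nuggc.

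The endogenous Bcl2 gene did not separate the genotypes. Its signal was 2338 and 2716 in Wt mice 1 and 2 and 2065 and 3171 in Tg mice 3 and 4, the order in which values are given from here on. The Tg libraries lay 1 below and 1 above both Wt libraries, and the log2 difference was 0.02 ± 0.21 SE. The labels do not say from which species the inserted BCL2 comes or whether its reads could align to the mouse gene, so this value is no check of the transgene. Of the 18 listed genes of the BCL2 family 15 were in the table, their median difference was 0.22 against -0.02 over all genes, and 3 lay without overlap above Wt (12.7% of all genes did) and 0 below. The median was 0.0551 without Tg mouse 4 and 0.0867 without Wt mouse 1.

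Among the family's survival proteins, Mcl1 was at 10896 and 13198 in Wt and 12039.8 and 16313 in Tg, and Bcl2l1, which encodes BCL-XL, at 327 and 252 in Wt and 293 and 349 in Tg. Both overlapped. Bcl2a1d, 1 of 3 near-identical copies of the A1 gene in the table between which reads may be divided uncertainly, was at 192 and 147 in Wt and 259 and 193 in Tg, with a gap of 0.01 on the log2 scale. The executioner gene Bax was at 1477 and 1324 in Wt and 1499 and 1804 in Tg, and Bid, which activates it, at 564 and 502 in Wt and 594 and 643 in Tg. These 3 were the members without overlap, and their gaps were all under 0.1 on the log2 scale. The BH3-only gene Bcl2l11, encoding BIM, was at 1045 and 1459 in Wt and 1395 and 1746 in Tg, and Bbc3, encoding PUMA, at 742 and 1222 in Wt and 601 and 1062 in Tg. For both genes the genotypes overlapped.

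With all 4 libraries, germinal centre genes had the highest median difference of the cell type and pathway lists. All 18 listed genes were in the table, and their median log2 difference was 0.61. In both Tg libraries 11 of them (61.1%) lay above both Wt libraries, against 12.7% of all genes, and 0 below, against 14.6%. Leaving out each library in turn gave medians of 0.45 (without Tg mouse 3) to 0.94 (without Tg mouse 4), and the list was then the highest only without Tg mouse 4. The macrophage list was higher without Wt mouse 1, at 0.82 against 0.76, the regulatory T cell list without Wt mouse 2, at 0.70 against 0.67, and the heat shock, regulatory T cell and macrophage lists without Tg mouse 3, at 0.94, 0.63 and 0.56 against 0.45. limma called 0 of the 18, and DESeq2 called 7, all higher (0.165% of the 10881 genes with an adjusted p were). Over the 18 pan B cell genes, by contrast, the signal summed to 184064 and 227628 in Wt and 221554 and 219063 in Tg. Their median difference was 0.05 (-0.0181 without Wt mouse 1 and 0.19 without Wt mouse 2). Of these 18, 5 lay without overlap above Wt (27.8%, against 12.7% of all genes) and 0 below (14.6% of all genes). The 16 measured macrophage genes summed to 3406 and 2360 in Wt and 3811 and 4109 in Tg, and their part in the germinal centre values was not tested.

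The germinal centre transcription factors Mybl1 and Mef2b were both higher in Tg. Mybl1, which encodes A-MYB, was at 158 and 79.9 in Wt and 412 and 353 in Tg, a log2 difference of 1.75 ± 0.33 SE (adjusted p in limma 0.511, in DESeq2 0.00221). Mef2b was at 409.6 and 241 in Wt and 862 and 649.9 in Tg, a difference of 1.25 ± 0.28 SE (adjusted p in limma 1, in DESeq2 0.0171). Each Tg value of either gene was above both Wt values, by more than the Wt mice differed from each other on the linear scale. Bcl6, the master regulator of the germinal centre programme, was at 1371 and 1502 in Wt and 1976 and 1480.3 in Tg. Its level in Tg mouse 4 fell between those of the Wt mice.

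Rgs13, S1pr2 and Efnb1 were above Wt in both Tg mice and were called by DESeq2, but not by limma. Rgs13, a regulator of G protein signalling that dampens the response to chemokines, was at 58.1 and 51.4 in Wt and 251 and 150.2 in Tg, a log2 difference of 1.81 ± 0.33 SE (adjusted p in limma 0.511, in DESeq2 0.00752). S1pr2, a sphingosine phosphate receptor that confines B cells to the germinal centre, was at 376 and 267 in Wt and 688 and 681 in Tg, a difference of 1.11 ± 0.20 SE. The ephrin Efnb1 was at 209.6 and 162 in Wt and 376 and 466 in Tg. None of the 3 overlapped, and the Tg mice nearly coincided for S1pr2. Gcsam, a signalling adaptor of germinal centre cells, was at 282 and 184 in Wt and 494 and 241 in Tg and did overlap, since only Tg mouse 3 lay clear of Wt.

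Neil1 and Nuggc lay apart from Wt, whereas Ung and Polh overlapped. Neil1, a DNA glycosylase, was at 959 and 1203 in Wt and 2202 and 1923 in Tg (0.94 ± 0.16 SE, adjusted p in limma 0.511 and in DESeq2 0.00404). Nuggc, a nuclear GTPase of germinal centre cells, was at 214 and 144 in Wt and 594 and 479 in Tg (1.59 ± 0.24 SE, adjusted p in limma 0.511 and in DESeq2 0.000234). Both genes were above Wt in both Tg mice. Ung, the uracil DNA glycosylase gene, was at 361 and 369.8 in Wt and 422 and 362 in Tg, and the error-prone polymerase gene Polh at 516 and 292 in Wt and 304 and 403 in Tg. Tg mouse 4 lay between the Wt mice for both of these.

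The remaining members named here had small gaps or overlapped. Eaf2 was at 123 and 104 in Wt and 205 and 149 in Tg. The death receptor gene Fas was at 292 and 224 in Wt and 337 and 319 in Tg, and the transcriptional regulator Lmo2 at 1933 and 2285 in Wt and 2315 and 2404 in Tg. None of these 3 overlapped, with gaps of 0.28, 0.13 and 0.02 on the log2 scale. Ezh2, Klhl6 and Cd83 overlapped. Cd83 was at 2248 and 4621 in Wt and 4191 and 4559 in Tg, and its difference of 0.44 rested on the low value of Wt mouse 1. Without that mouse it was -0.08.

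**Figure D2:**
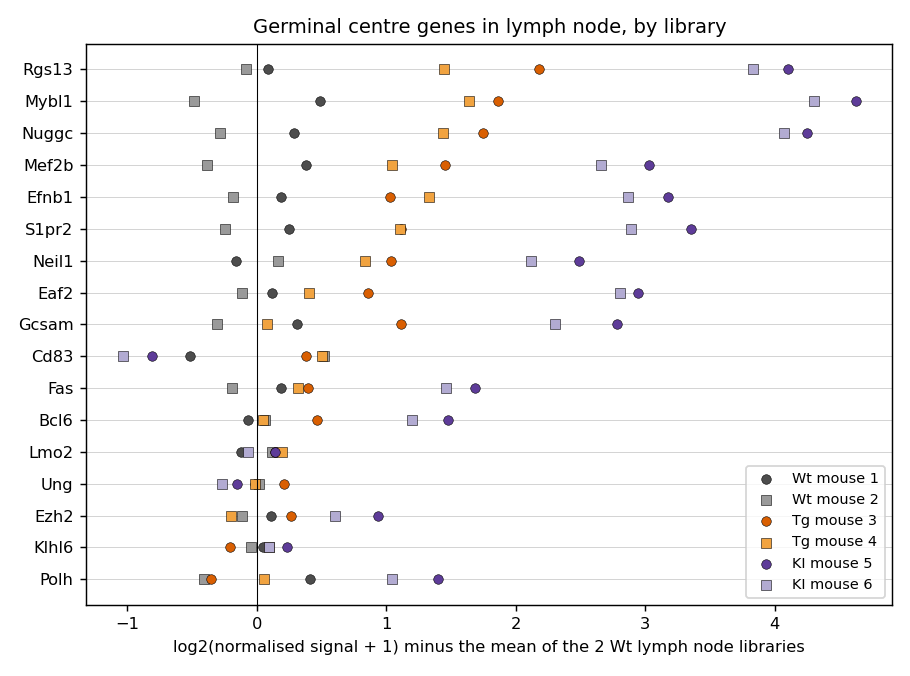
Level of 17 germinal centre genes in the 6 lymph node libraries, as log2(normalised signal + 1) minus the mean of the 2 Wt libraries (horizontal axis); each point is 1 library, grey for Wt, orange for Tg and purple for KI. For 10 of these genes both orange points lie right of both grey points, and for genes such as Nuggc and Mybl1 the purple points lie further to the right.

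Set beside the KI lymph nodes, most of these genes were lower in Tg than in KI. Comparing KI with Tg directly, over the 6 LN libraries, limma called 14 of the 18 germinal centre genes higher in KI (11.1% of all genes were) and 1 lower (8.81% of all genes). Rgs13 was at 955 and 793 in KI mice 5 and 6, a log2 difference from Tg of 2.16, and Nuggc at 3366 and 2979, a difference of 2.57. Mybl1 was at 2803 and 2236 and Mef2b at 2566 and 1984. The member called lower in KI was Cd83, at 1835 and 1572. The log2 differences between the KI replicates had an SD of 0.918 over genes, above that of Tg, but a median size of 0.141, below that of Tg.

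In spleen, where Tg has the single library of mouse 4, that library lay above both Wt libraries for 13 of the 18 germinal centre genes (32.3% of all genes) and below both for 1 (32.1% of all genes). Nuggc was at 96.5 and 216 in spleen Wt and 418 in spleen Tg. These 3 mice also gave LN libraries, so the spleen values come from other tissue of the same animals. A test of the difference between the Tg effect in LN and in spleen, over 7 libraries, called 0 genes in limma (0% of 10885), with 139 genes at an unadjusted p under 0.05, 1 of them in the germinal centre list.

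The 12 genes with a mean signal of at least 100, no overlap and the smallest p on the higher side were Pdzd2, Nuggc, Neil1, Hpse, Rgs13, Cacna1d, S1pr2, Sh2b2, Sema7a, Clip2, Efnb1 and Mybl1. Of these, 6 belong to the germinal centre list, which holds 18 of the 10885 genes. DESeq2 called all 12 (0.165% of the 10881 genes with an adjusted p were called higher). The 12 were picked by p in the same 4 libraries, so these calls are no independent support. Pdzd2, which encodes a protein with PDZ domains, was at 103 and 86.4 in Wt and 284 and 341 in Tg, a 3.27-fold difference. Hpse, which encodes the matrix enzyme heparanase, was at 269 and 205 in Wt and 637 and 490.3 in Tg (2.37-fold). The calcium channel gene Cacna1d was at 96.8 and 148 in Wt and 328 and 326 in Tg (2.72-fold). In each case both Tg mice lay clear of Wt, and for Cacna1d they nearly coincided.

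The other 3 encode signalling and cytoskeletal proteins. Sh2b2, an adaptor of receptor kinase signalling, was at 224 and 167 in Wt and 425 and 448 in Tg. The semaphorin gene Sema7a was at 359.6 and 286 in Wt and 621 and 632 in Tg, and Clip2, which encodes a linker to microtubules, at 455 and 438 in Wt and 752 and 829 in Tg. All 12 had an adjusted p in limma of 0.511.

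The 23 genes with a gap of at least 2-fold, named after their values were seen, held 6 with a mean signal of at least 100, namely Pdzd2, Rgs13, Nuggc, Mybl1, Cacna1d and Dlg5. DESeq2, run on reads of the same 4 libraries by which the 23 were chosen, called 8 of them. It called 0.165% of the 10881 genes with an adjusted p higher. Cobl, an actin nucleator, had the greatest difference among them, at 9.68 and 19.7 in Wt and 183 and 94.5 in Tg (3.16 ± 0.50 SE, adjusted p in limma 0.511 and in DESeq2 0.000268). The receptor tyrosine kinase gene Ret was at 17.7 and 10.9 in Wt and 73.6 and 80.2 in Tg, and the sodium channel gene Scn8a at 21.0 and 15.3 in Wt and 80.7 and 105 in Tg. DESeq2 called both, and both were higher again in KI, Ret at 472 and 448 and Scn8a at 586 and 391.

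Apart from Dlg5, the rest of the 23 had a mean signal under 100. The G protein regulator Rgs9 was at 19.4 and 15.3 in Wt and 66.5 and 80.2 in Tg. The growth factor gene Tgfa was at 9.68 and 3.28 in Wt and 31.1 and 48.1 in Tg, and the scaffold gene Dlg5 at 32.3 and 67.8 in Wt and 164 and 168 in Tg. Trpm5, Rp1l1, Pawr, Arhgap8, Pipox, Krt222 and the predicted genes Gm16025 and 3425401B19Rik also lay apart, all with less than 130 in every Tg or Wt library. The chemokine gene Cxcl2 was at 16.1 and 19.7 in Wt, 46.7 and 46.4 in Tg and 4.39 and 1.15 in KI. Comparing KI with Tg directly, limma called 17 of the 23 higher in KI (11.1% of all genes were). It called 1 of the 23 lower in KI, namely Cxcl2 (8.81% of all genes were). The variable segments Igkv1-132 and Ighv1-34 completed the list; the first was at 0 in both Wt libraries and under 6 in Tg, so no fold is given. In spleen the library of Tg mouse 4 was above both Wt libraries for 22 of the 23, all but Il21 (32.3% of all genes were above both). That library is from 1 of the 2 Tg mice by which the 23 were chosen, so it is not an independent animal.

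**Figure D3:**
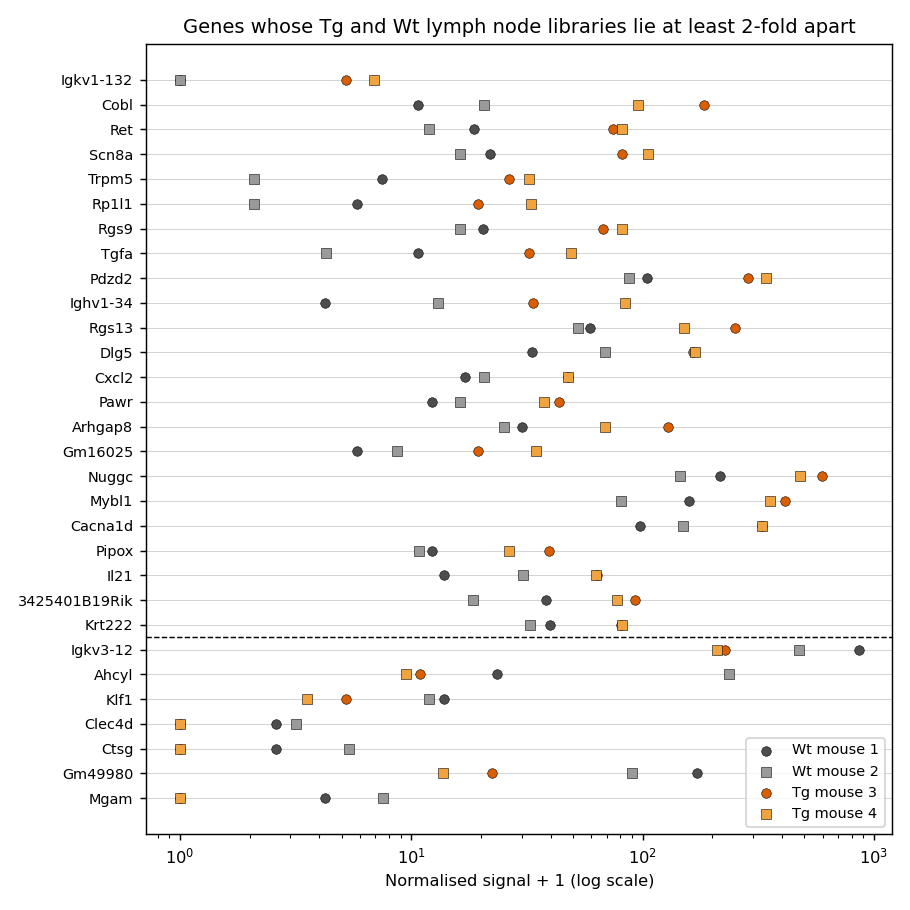
Normalised signal plus 1 (horizontal axis, log scale) in the 2 Wt and 2 Tg lymph node libraries for the 30 genes whose nearest libraries lay at least 2-fold apart; the dashed line divides the 23 higher in Tg from the 7 lower. Orange points lie right of grey points above the line and left of them below it, and most of the genes have a signal under 100 in Wt.

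On the lower side there was less separation. Of the 7 genes with a gap of at least 2-fold, Clec4d, Ctsg and Mgam were at 0 in both Tg libraries and under 7 in Wt, and the erythroid factor gene Klf1 was under 13 throughout, so these rest on a few reads. Igkv3-12, a kappa variable segment, was at 856 and 473 in Wt and 225 and 208 in Tg, and the predicted gene Gm49980 at 171 and 88.6 in Wt and 21.2 and 12.7 in Tg. DESeq2 called these 2 and Ahcyl (0.0368% of the 10881 genes with an adjusted p were called lower). Ahcyl was at 22.6 and 235 in Wt and 9.91 and 8.44 in Tg, and in KI at 301 and 265, so that it was low in 3 of the 6 LN libraries. In spleen, too, it differed between the Wt mice, at 6.50 and 278, with 10.4 in Tg.

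The 12 lower genes of smallest p with a mean of at least 100 were Ifi208, Paqr7, Gimap1, Mphosph8, Il7r, Eomes, Cnga1, Padi2, Ighg2c, Fyb, Bod1l and Gbp7, and 11 of them differed by less than 1 on the log2 scale. All 12 had an adjusted p in limma of 1. Il7r, the receptor subunit for the T cell survival cytokine IL-7, was at 5652 and 5335 in Wt and 3074 and 4158 in Tg (-0.62 ± 0.17 SE). Eomes, a transcription factor of effector CD8 T and natural killer cells, was at 681 and 736 in Wt and 519 and 401 in Tg (-0.63 ± 0.18 SE). Gimap1, a GTPase gene needed for lymphocyte survival, was at 4398 and 4346 in Wt and 3282 and 2661 in Tg, and Fyb, which encodes a T cell adaptor, at 5807 and 5298 in Wt and 4215 and 4027 in Tg. Ifi208, an interferon-inducible gene, was at 2171 and 1659.5 in Wt and 1002 and 1235 in Tg, and the guanylate-binding protein gene Gbp7 at 1064 and 732 in Wt and 590.2 and 564 in Tg. None of these overlapped.

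Immunoglobulin constant regions, the part of the antibody that sets its class, held single members without overlap in each direction. Of 12 in the table, 3 were without overlap above Wt (12.7% of all genes were) and 1 below (14.6% of all genes). The median difference was 0.09, with -0.13 without Tg mouse 3 and 0.49 without Tg mouse 4. Igha, the constant region of IgA, was at 7973 and 13408 in Wt and 19486 and 23172 in Tg (1.04 ± 0.25 SE), and Ighg2b at 4444 and 6555 in Wt and 10395 and 10442 in Tg (0.95 ± 0.20 SE). Both Tg values were above both Wt values, with adjusted p-values in limma of 1 for Igha and 0.714 for Ighg2b, and in DESeq2 of 0.0177 and 0.00752. The kappa constant region Igkc was at 22589 and 26307 in Wt and 31179 and 31009 in Tg, a smaller difference of 0.35 ± 0.17 SE.

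Ighg2c went the other way. It was at 3646 and 4092 in Wt and 849 and 1849 in Tg (-1.62 ± 0.40 SE, adjusted p in limma 1 and in DESeq2 0.000644), and leaving out either Tg mouse brought it past the threshold in limma, at an adjusted p of 0.0498 without mouse 3 and 0.000435 without mouse 4, where the lone Tg library is assumed to vary like those of Wt. In spleen the order was reversed, with 4505 and 11991 in Wt and 35666 in Tg, and the test of that difference between tissues gave an adjusted p in limma of 1. In the KI lymph nodes it was at 272354 and 206815. The class most used by naive cells, Ighm, was at 32224 and 38646 in Wt and 34483 and 35115 in Tg, and Ighg1, Ighg3, Ighe and Ighd overlapped. Ighg1 and Ighe varied within each genotype more than between them, Ighg1 at 10617 and 4229 in Wt and 14239 and 4037 in Tg.

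Of 88 heavy chain variable segments 12 were without overlap above Wt and 9 below, and of 79 kappa segments 12 above and 9 below. Over all genes, 12.7% were above and 14.6% below, and the shares of the segments were near these. Summed over all immunoglobulin genes, the share of the signal was 0.662% and 0.751% in Wt and 0.875% and 0.823% in Tg, against 9.46% and 6.77% in KI.

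**Figure D4:**
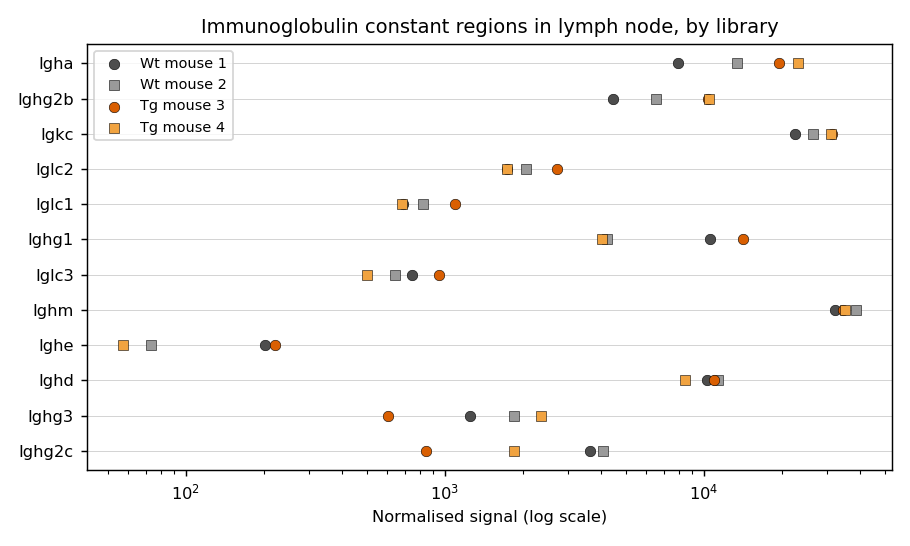
Normalised signal (horizontal axis, log scale) of the 12 immunoglobulin constant regions in the 2 Wt and 2 Tg lymph node libraries, ordered by the difference of Tg minus Wt. Igha, Ighg2b and Igkc have both Tg points right of both Wt points, Ighg2c has both to the left, and Ighg1, Ighg3 and Ighe are spread widely within each genotype.

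Of 18 plasma cell genes in the table, 7 were without overlap above Wt (12.7% of all genes were) and 0 below, 11 overlapped, and the median was 0.25. limma and DESeq2 called 0 of them. The joining chain gene Jchain, which links IgA and IgM into polymers, was at 2972 and 3699.8 in Wt and 6602 and 4465 in Tg (0.71 ± 0.21 SE, adjusted p in limma 1). The plasma cell surface gene Sdc1, encoding CD138, was at 163 and 207 in Wt and 252 and 217 in Tg, and the secretory regulator Xbp1 at 1730.3 and 2197 in Wt and 2393 and 2155 in Tg, the latter with overlap. In KI, Jchain was at 122650.0 and 128795. limma called 15 of the 18 higher in KI than in Tg (11.1% of all genes were) and 1 lower (8.81% of all genes). Of the 16 genes of the unfolded protein response, 1 was without overlap above Wt and 3 below (12.7% and 14.6% of all genes were). Their median was -0.03.

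DESeq2 and limma called 0 genes of the other B cell lists. Over all genes, 12.7% were without overlap above Wt and 14.6% below. B cell receptor signalling had 6 of 17 without overlap above Wt and 0 below, at a median of 0.09 (-0.0133 without Wt mouse 1 and 0.0269 without Tg mouse 4), with the adaptor Pik3ap1 highest at 3125 and 3423 in Wt and 4362 and 3955 in Tg and the inhibitory Fc receptor Fcgr2b at 1037 and 1045 in Wt and 1211 and 1342 in Tg. Marginal zone and B1 genes had 4 of 13 above and 0 below, and a median of 0.19. Their clearest member was the sphingosine phosphate receptor S1pr3, at 79.0 and 86.4 in Wt and 159.9 and 159 in Tg. Memory and switched B cell genes had 3 of 11 above and 1 below, at a median of 0.17 that was 0.0250 without Tg mouse 4, 0.0589 without Wt mouse 1 and 0.0821 without Tg mouse 3, with the memory marker Cd80 at 25.8 and 45.9 in Wt and 69.3 and 72.6 in Tg and Nt5e, encoding CD73, at 787 and 989 in Wt and 1114 and 1804 in Tg.

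Of 27 proliferation genes 4 were without overlap above Wt and 5 below, shares near the 12.7% and 14.6% of all genes, at a median of -0.04 (-0.15 without Tg mouse 3 and 0.0917 without Tg mouse 4), and the list summed to 21020 and 20264 in Wt and 20966 and 19002 in Tg. Mki67, a marker of dividing cells, was at 1203 and 1432 in Wt and 1414 and 1194 in Tg. The MYC and growth list had 2 of 14 above and 2 below, also near these shares of all genes. Its member of smallest p was the polyamine enzyme gene Odc1, at 4157 and 5204 in Wt and 7433 and 7392 in Tg (0.67 ± 0.16 SE), while Myc itself was at 3096 and 3369 in Wt and 2443 and 3134 in Tg.

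Genes of follicular helper T cells, which select B cells in the germinal centre, were mixed. Of 10 measured genes, 5 were without overlap above Wt (12.7% of all genes were) and 1 below (14.6%), and the median was 0.00. Il21, the helper cytokine that drives germinal centre and plasma cells, was at 12.9 and 29.5 in Wt and 62.3 and 61.6 in Tg (1.61 ± 0.49 SE), and the transcription factor gene Tox2 at 218 and 242 in Wt and 426 and 449 in Tg (0.93 ± 0.19 SE, adjusted p in limma 0.649). The costimulatory receptor gene Icos, at 522 and 1215 in Wt and 1587 and 1503 in Tg, was lowest in Wt mouse 1 by a wide margin, and its log2 difference of 0.95 was 0.35 without that mouse. The defining receptors lay closer together in Wt and Tg: Cxcr5, which B cells also express, was at 1979 and 2810.4 in Wt and 1848 and 2426 in Tg, and Pdcd1, encoding PD-1, at 131 and 131 in Wt and 134 and 138 in Tg. In spleen, Il21 was at 51.1 and 62.1 in Wt and 39.1 in Tg.

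Regulatory T cell genes had 5 of 10 without overlap above Wt (12.7% of all genes were) and 0 below (14.6%), at a median of 0.45. The defining factor Foxp3 was at 327 and 624 in Wt and 577 and 755 in Tg, with overlap. The costimulatory receptor gene Tnfrsf4, encoding OX40, was at 253 and 293 in Wt and 408 and 432 in Tg, and Il2ra, the IL-2 receptor subunit CD25, at 219 and 269 in Wt and 318 and 304 in Tg. Ctla4, the inhibitory receptor, was at 419 and 1581 in Wt and 1987 and 2087 in Tg. Here Wt mouse 1 was again the low library, and without it the log2 difference of Ctla4 went from 1.32 to 0.37. The list's median was 0.29 without Wt mouse 1 and 0.70 without Wt mouse 2.

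Pan T cell genes had 0 of 19 without overlap above Wt (12.7% of all genes were) and 7 below (14.6% of all genes). Their median was -0.14, and they summed to 120008 and 120172 in Wt and 109388 and 114132 in Tg. The count below depends on the scaling. After quantile normalisation 3 were below Wt (14.1% of all genes were). After scaling without immunoglobulin and haemoglobin genes it was also 3 (9.47% of all genes). The median was -0.0563 without Tg mouse 3 and -0.21 without Wt mouse 2, and limma and DESeq2 called 0 of the 19. Cd3e, a subunit of the T cell receptor complex, was at 3575 and 3338 in Wt and 2436 and 3062 in Tg, and Lef1, a transcription factor of naive T cells, at 4527 and 4155 in Wt and 3242 and 3708 in Tg. Cd8b1, a coreceptor of CD8 T cells, was at 6549 and 5656 in Wt and 4877 and 5077 in Tg. Of the 14 genes of CD8 T and natural killer effector cells, 1 was above and 2 below (12.7% and 14.6% of all genes were).

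Of 19 listed macrophage genes 16 were in the table, 11 were without overlap above Wt (12.7% of all genes were) and 0 below, and 5 overlapped. limma and DESeq2 called 0 of the 16. The median was 0.56, with 0.35 without Wt mouse 2 and 0.82 without Wt mouse 1. Siglec1, the sialoadhesin of the macrophages lining the lymph node sinus, was at 235 and 131 in Wt and 260.4 and 362 in Tg. The mannose receptor gene Mrc1 was at 37.1 and 36.1 in Wt and 65.1 and 70.0 in Tg, and Cd5l, a secreted macrophage protein gene, at 69.3 and 48.1 in Wt and 116 and 98.7 in Tg. Adgre1, encoding F4/80, was at 108 and 82.0 in Wt and 125 and 189.9 in Tg, and C1qb, encoding a complement subunit, at 264 and 171 in Wt and 309.9 and 371 in Tg.

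In spleen the macrophage list did not lie the same way, with a median difference of -0.32. There the library of Tg mouse 4 was above both Wt libraries for 4 of the 16 genes (32.3% of all genes). It was below both for 11 (32.1% of all genes). Of the 16, 9 had an unadjusted p under 0.05 for the difference between tissues in limma, with 139 such genes among all 10885. After the adjustment 0 passed.

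Dendritic cell genes had 4 of 13 without overlap above Wt (12.7% of all genes were) and 0 below (14.6% of all genes). Their median of 0.24 was 0.0589 without Wt mouse 2 and 0.41 without Wt mouse 1. The growth factor receptor gene Flt3 was at 326 and 369.8 in Wt and 569 and 525 in Tg. The chemokine gene Ccl22 was at 819 and 547 in Wt and 1074 and 1103 in Tg, and Fscn1, an actin bundling protein gene of mature dendritic cells, at 4335 and 3228 in Wt and 8404 and 4836 in Tg. Neutrophil and monocyte genes had 0 of 15 above and 1 below, with a median of -0.61 that rested on Wt mouse 2. Their signal summed to 1593 in Wt mouse 1, 3511 in Wt mouse 2, and 1646 and 1876 in Tg. Without Wt mouse 2 the median was 0.16, and without Wt mouse 1 it was -2.24. Erythroid genes, 0 of 11 above and 1 below, summed to 2524 and 3427 in Wt and 2347 and 3592 in Tg, so the genotypes overlapped. Their median was -0.54, but -1.24 without Tg mouse 4 and 0.16 without Tg mouse 3.

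Of the cell types that could be carried over from outside the lymphoid compartment, few markers were in the table. The stromal list had 2 of its 14 genes measured, the endothelial list 4 of 11 and the adipocyte list 1 of 7, and the sum of each overlapped between the genotypes. Platelet markers Pf4 and Ppbp were at 0 in all 4 libraries. Eosinophil, basophil and mast cell genes had 0 of 6 above and 0 below (12.7% and 14.6% of all genes were).

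Type I interferon response genes had 0 of 17 above (12.7% of all genes were) and 1 below (14.6%), with a median of -0.08. They summed to 9413 and 6545 in Wt and 6856 and 7302 in Tg. Without Wt mouse 2 the median was -0.57, with 0 above and 15 below (28.3% and 34.7% of all genes were). Without Wt mouse 1 it was 0.17, with 8 above and 1 below (26.3% and 26.6% of all genes). Wt mouse 1 again lay apart in the NF-kB targets, which summed to 47708 there, 73954 in Wt mouse 2, and 69765 and 75826 in Tg. Of these 16 targets, 2 lay without overlap above Wt, near the 12.7% of all genes, and 0 below (14.6% of all genes). Their median of 0.20 was 0.0484 without Wt mouse 1, 0.0336 without Tg mouse 4 and 0.37 without Tg mouse 3. Immediate early genes had 2 of 17 above and 0 below, with medians of 0.30 without Tg mouse 3 and -0.35 without Tg mouse 4. The heat shock list had 0 of 11 without overlap in either direction, as the Tg mice lay on opposite sides of Wt. Its median was 0.94 without Tg mouse 3 and -0.85 without Tg mouse 4.

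**Figure D5:**
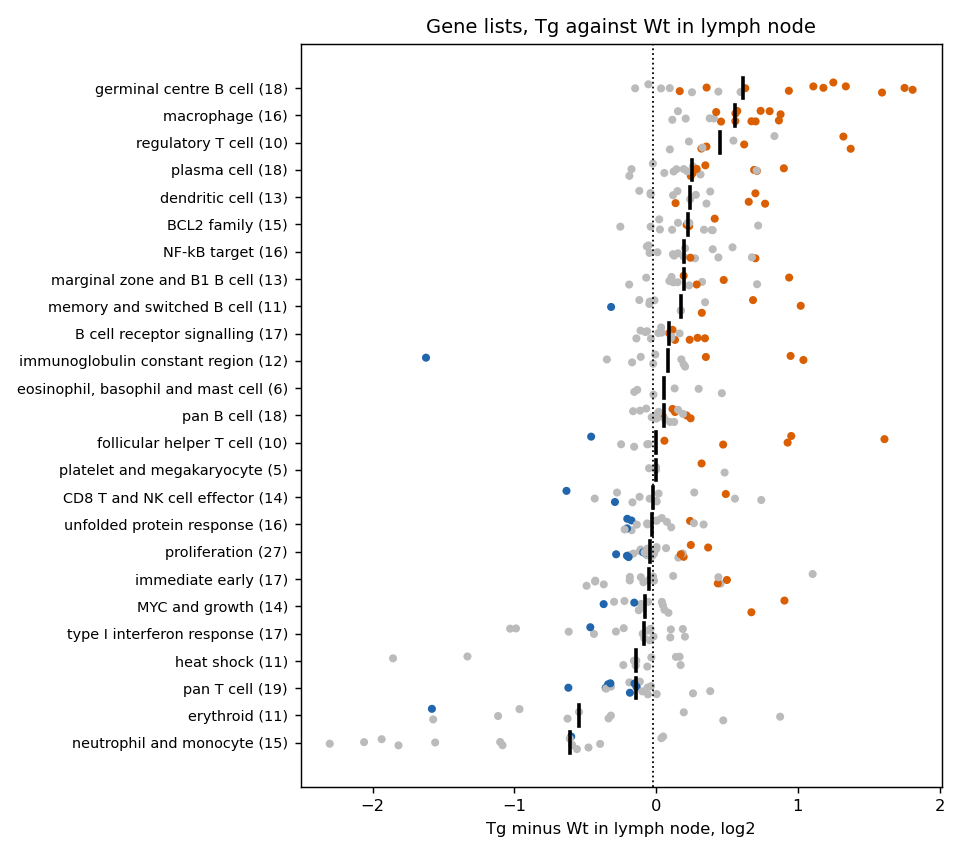
Log2 difference of Tg minus Wt in lymph node (horizontal axis) for each measured gene of the lists with at least 5 measured genes, whose number stands in brackets. Orange points are genes with both Tg libraries above both Wt libraries, blue points those with both below, grey points those that overlap; black bars are list medians and the dotted line the median of all genes. With all 4 libraries, germinal centre and macrophage genes have the highest medians, 0.61 and 0.56, and neutrophil and monocyte genes the lowest, -0.61.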

How the data were processed

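RNA-seq of the 4 LN libraries was analysed from 1 deposited table, whose unit is a normalised signal. The authors made these values from read counts divided by 1 factor per library, as read from the values; STAR 2.5, featureCounts, Subread 1.4.6, FastQC 0.11.5, DESeq2 1.26.0 and build GRCm39 are named by the submitters' processing notes, without role or order. For annotation, strandedness and filtering, the sources used here give no details. The lowest maximum of any gene was 109.3, so genes expressed weakly throughout are not covered. Gene symbols are those of the deposited table. Dividing by the smallest step of a library gave whole reads, within 0.05, for 100% of values, and these are the recovered reads.

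The main test was limma-trend (limma 3.58.1 in R 4.3.3), run on the 4 libraries after log2(value + 1), two-sided, with robust empirical Bayes moderation and Benjamini-Hochberg adjustment over 10885 genes, called at an adjusted p under 0.05. It leaves few residual degrees of freedom, and moderation brought the median to 8.09. Fold changes are on the log2(value + 1) scale and understate those of low genes. The difference between tissues was fitted over the 7 Wt and Tg libraries and KI minus Tg over the 6 LN libraries, with the lone spleen Tg library assumed to vary like the others. Alternatives were pooled spreads, mouse as a random term (statmod 1.5.0), pseudocounts of 0.1 and 5, a mean of at least 100, quantile normalisation, removal of immunoglobulin and haemoglobin genes, no trend or robust moderation, and omission of each library. edgeR 4.0.16 (0 genes called) and DESeq2 1.42.0 (22 genes called) on recovered reads, the list values under each alternative, and the values of Icos, Ctla4, Irs2 and Fosl2 without Wt mouse 1, were chosen after seeing the data. The scripts were tested on simulated data.

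The 29 gene lists, tests and naming rule were chosen with earlier results of these data known. Of the lists, 1 germinal centre gene is counted in its list but not reported here by name. Named were Bcl2, the 12 genes of smallest p in each direction with no overlap and a mean of at least 100, all other germinal centre, BCL2 family, constant region and sex-linked genes, and up to 4 genes of smallest p of each other list; further genes were named after their values were seen.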

Additional observations from a re-analysis of the deposited data

How the results depend on the processing

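The count of genes called by limma remained 0 with the spread pooled over 11, 7 or 6 libraries, with both other pseudocounts, the filter, quantile normalisation, removal of immunoglobulin and haemoglobin genes, and no moderation by trend, and 0 in edgeR; DESeq2 called 22. With each mouse as a replicate block over the 11 libraries it was 0 (533 genes at an unadjusted p under 0.05), and with the block the count for the difference between tissues was also 0; the genotypes themselves share no mouse. Leaving out a library gave 1 to 20 calls: 1 without Wt mouse 1, 20 without Wt mouse 2 (among them Xist and the Y-linked genes), 9 without Tg mouse 3 and 4 without Tg mouse 4 (both with Hspa1a, in opposite directions). The 30 genes at least 2-fold apart became 19 with a pseudocount of 5, 7 with a mean of at least 100, 89 at a gap of 1.5-fold, and 95 to 178 without 1 library. By construction the filter can only keep or lower this count. A smaller gap or the omission of a library can only keep or raise it. Leaving out 1 library turned the sign of some log2 differences, whose ranges were -0.29 to 0.33 for Bcl2, -0.0802 to 0.96 for Cd83, -0.20 to 0.27 for Ezh2, -0.46 to 0.45 for Iglc3, -0.17 to 0.93 for Ccr7, -3.28 to 0.16 for Camp, -2.24 to 0.0363 for Mmp8, -1.17 to 0.0859 for Hba-a2, -0.00033 to 0.39 for Tfrc, -2.20 to 0.14 for Ifi44, -0.69 to 0.41 for Hsp90ab1, -0.0134 to 10.69 for Eif2s3y, -0.0325 to 11.39 for Ddx3y and -0.13 to 8.38 for Uty. List medians took both signs for 14 of 26 lists: -0.85 to 0.94 for heat shock, -2.24 to 0.16 for neutrophil and monocyte, -1.24 to 0.16 for erythroid, -0.57 to 0.17 for type I interferon response, -0.35 to 0.30 for immediate early, -0.49 to 0.14 for endothelium, -0.13 to 0.49 for immunoglobulin constant regions, -0.24 to 0.31 for eosinophil, basophil and mast cell, -0.18 to 0.11 for CD8 T and NK cell effector, -0.15 to 0.0917 for proliferation, -0.15 to 0.0324 for unfolded protein response, -0.0181 to 0.19 for pan B cell, -0.0133 to 0.14 for B cell receptor signalling and -0.0706 to 0.0305 for MYC and growth. The cause was not tested. Depth limits genes under a signal of about 5, which is 3 reads (4.84 in Wt mouse 1).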

Other observations

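A few genes were near absent in some mice of a genotype and present in others, in the spleen as in the lymph node (LN). Slc15a2, a peptide transporter gene, was at 414 and 2.19 in LN of wild-type (Wt) mice 1 and 2, 1037 and 529 in LN of transgenic (Tg) mice 3 and 4, and 518 and 11 in spleen of Wt mice 1 and 2. Hmga1b was at 14.5 and 221 in LN Wt, 195 and 225 in LN Tg and 14.9 and 227 in spleen Wt.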
